A study of Mus musculus with 6 samples.

Results

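The library labelled G9a/GLP dKO was set against the library labelled G9a het, both made from polyadenylated RNA of mouse main olfactory epithelium at E18.5, late in embryonic development. A gene was taken in when its level reached 1 FPKM in at least 1 of these libraries, which kept 15382 of the 22029 gene symbols of the embryonic table. FPKM is the number of fragments scaled by transcript length and by the mapped fragments of the library. After 222 olfactory receptor genes, whose counts are not described here, and 80 symbols of very short RNAs were set aside, 15080 genes had ratios. G9a and GLP, encoded by Ehmt2 and Ehmt1, are paired methyltransferases that place mono- and dimethyl marks on lysine 9 of histone H3, a mark of silenced chromatin. The olfactory epithelium holds basal stem cells, progenitors, immature and mature sensory neurons, sustentacular cells that support the neurons and metabolise odorants, mucus glands of Bowman, and a few microvillar cells. It lies on bone and cartilage beside respiratory epithelium, and the embryonic snout also carries skin, whisker follicles, muscle and tooth germs, so the marker genes of each of those tissues were read as well.

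The embryonic samples were 1 library from each of 4 genotypes: G9a heterozygous (G9a het), G9a knockout (G9a KO), G9a knockout with 1 GLP allele lost (G9a KO GLP het) and double knockout (G9a/GLP dKO, or dKO). All the animals had a mixed strain background that was mostly C57/B6. The labels give neither the alleles or any Cre driver, nor whether embryos were pooled, nor the embryos' sexes. The reference library is itself heterozygous, so no wild-type level stands behind the ratios. With 1 library a genotype there is no replicate error and no test, and every difference below is between 2 libraries. The range beside an FPKM is the interval that the authors deposited with it, at a confidence level that its header does not state.

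The targeted genes did not serve as a check of the labels. Ehmt2 and Ehmt1 had log2 ratios of 0.30 and -0.10 in the dKO over the G9a het, so neither was clearly lower. A gene-level FPKM can also count transcript outside a deleted part, but whether it did here was not tested. Libraries described below as without G9a are so named by their labels alone. The sex-linked genes did separate the libraries. Xist, the RNA that silences one X chromosome in females, was at 0.242, 140.2, 0.272 and 208 FPKM from the heterozygote through G9a KO and then G9a KO GLP het to the dKO, an order kept for all sets of 4 values below. The summed level of Y-linked Eif2s3y, Ddx3y, Uty and Kdm5d was 93.4, 0.254, 76.4 and 0 FPKM. The G9a het library thus carried Y-linked transcripts and the dKO library carried Xist RNA, and this difference and the genotypes cannot be told apart for any gene. The labelled tissue was present in both libraries by its defining genes, Omp, Cnga2, Adcy3 and Gnal of mature neurons, Gap43 of immature neurons and Cyp2g1 of sustentacular cells, with values given below.

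Most genes had similar levels in the libraries. The median log2 ratio, dKO over G9a het on FPKM + 1, was 0.01, its quartiles were -0.21 and 0.23, and 14469 genes were within 2-fold. At least 2-fold higher in the dKO were 307 genes (2.04% of all), and at least 2-fold lower were 304 (2.02%). The deposited intervals were also apart for 151 of the higher genes (1.0%) and for 192 of the lower ones (1.27%). These last are called below higher or lower with separate intervals. Such an interval is wide. It reached, at the median, 61.6% of the FPKM to either side for genes between 1 and 5 FPKM in G9a het, and 34.1% for genes between 20 and 100 FPKM. In the dKO those figures were 62.3% and 33.9%. A gene listed at 0 FPKM could instead have both bounds at 0, as Ttbk2 and Hemt1 had in G9a het. Any lower bound above 0 in the other library then set the intervals apart. Hemt1 was called in this way with a dKO interval of 0.104 to 2.02. Of the genes with ratios, 26 were listed at 0 in G9a het and 37 in the dKO, so separate intervals say little for those. Of the 343 genes called, 117 belonged to the 55 gene lists described below. Those lists held 984 of the 15080 genes with ratios. Lists and members were chosen with earlier results of these data known, so this overlap is not an independent finding.

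**Figure D1:**
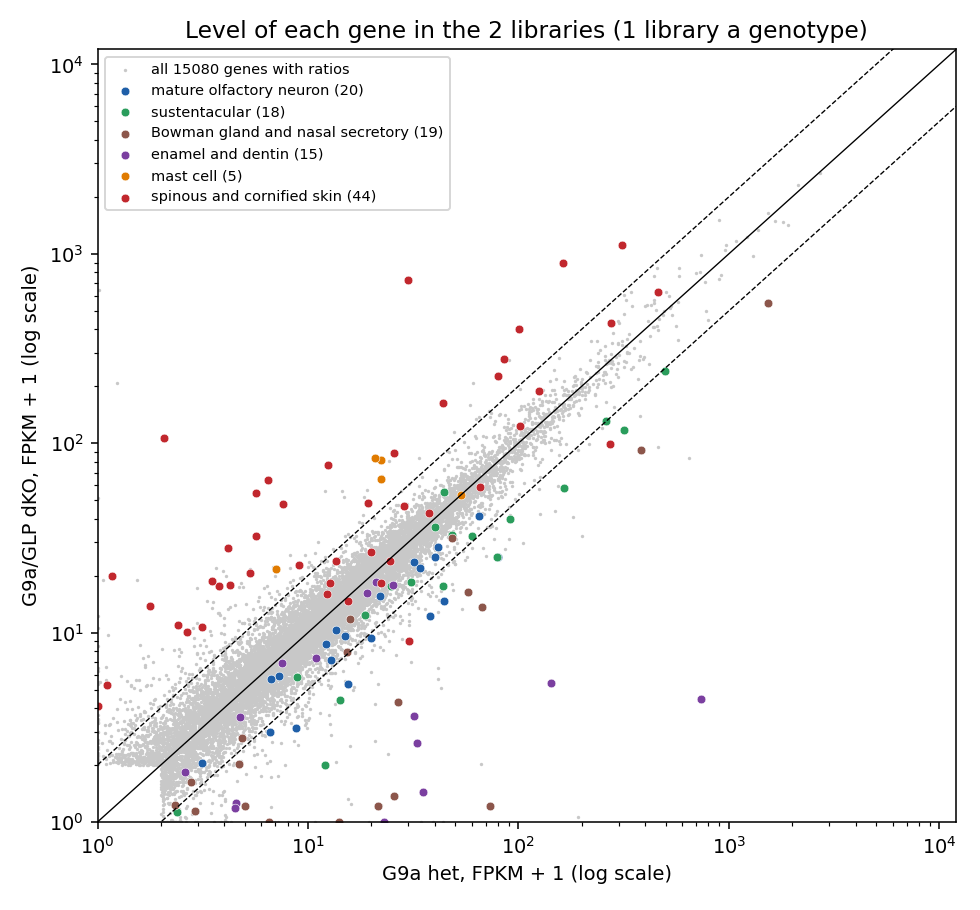
Each point is a gene, placed by its FPKM + 1 in the G9a het library (horizontal, log scale) and in the G9a/GLP dKO library (vertical, log scale); the solid line marks equal levels and the dashed lines mark 2-fold. Members of 6 cell type lists are coloured, with the number measured in the key. Enamel, gland and sustentacular genes lie mostly below the line of equality, and cornified skin genes mostly above it.

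Mature sensory neuron genes were lower in the dKO library, while genes of immature neurons stood near equality. All 20 mature neuron genes listed had negative ratios, against 48.3% of all genes, with a median of -0.65. At least 2-fold lower were 7, of them 5 with separate intervals, and none was 2-fold higher. Omp, the olfactory marker protein, was at 78.6, 36.0, 21.2 and 24 FPKM. Gnal, the G protein subunit that couples receptors to cyclase, was at 43.5, 18.3, 12.2 and 13.7 FPKM. In both genes the G9a het library was the highest and the 3 libraries without G9a were lower, with the lowest value in G9a KO GLP het. Their loci in the deposited table also hold other genes (Capn5 for Omp, Chmp1b and Mppe1 for Gnal), so the split of fragments between the neighbours is uncertain. Stoml3, a stomatin of the olfactory cilium whose locus is its own, was at 36.9, 13.9, 7.80 and 11.3 FPKM, a 3.26-fold lower level in the dKO. The other called members were Umodl1 at 14.5 FPKM (heterozygote) and 4.34 FPKM (dKO) and Ano2, the chloride channel that amplifies the odour current, at 7.78 FPKM (heterozygote) and 2.13 FPKM (dKO).

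Not every mature gene differed equally. Adcy3, the cyclase of odour transduction, was at 21.1, 14.9, 11.6 and 14.6 FPKM, and its intervals overlapped. Cnga2, the main subunit of the cyclic nucleotide channel, was at 19, 11.4, 6.01 and 8.34 FPKM, a log2 ratio of -1.10, again with overlapping intervals. The smallest difference on the list was a log2 ratio of -0.24. The dKO was the lowest of the 4 embryonic libraries for 3 of the 20 genes, against 21.3% of all genes. The summed level of the list was 498, 275, 182 and 258 FPKM. In bulk RNA, fewer cells of a type and less RNA per cell cannot be told apart.

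Gap43, a growth cone protein of immature neurons, was at 92.3, 92.8, 38.6 and 89.1 FPKM, and Gng8, an immature G protein gamma subunit, was at 20.3, 19.3, 17.7 and 20.3 FPKM. These levels were close in the libraries compared, and the low value of Gap43 belonged to G9a KO GLP het. None of 17 immature neuron genes was 2-fold apart, the median was 0.00, and the range ran from -0.73 (Nhlh2, a basic helix-loop-helix factor) to 0.32. Of the globose basal progenitor genes 11 were measured and none was 2-fold apart, with a median of -0.05. Their proneural factors Neurog1 and Neurod1 had log2 ratios of 0.22 and 0.31, with overlapping intervals. Among 13 genes of horizontal and stratified basal cells the median was 0.00 and none was called. Krt5, their keratin, was at 297, 376, 314 and 331 FPKM, and Krt14 at 79.8, 115, 119 and 140.2 FPKM, the largest difference of that list.

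Of 28 olfactory transcription factors, Isl1 alone was 2-fold lower, at 11.5 FPKM (heterozygote) and 4.61 FPKM (dKO) with overlapping intervals. Lhx2, Ebf3 and Ldb1, factors of receptor choice, had log2 ratios of -0.18, -0.22 and 0.33. Runx1, a runt factor, was at 30, 17.6, 17.4 and 15.9 FPKM, with separate intervals but under 2-fold. None of 27 axon guidance genes passed 2-fold with separate intervals. Kirrel2 and Kirrel3, adhesion molecules that sort axons to glomeruli, were at 14, 3.39, 2.61 and 8.56 FPKM and at 4.98, 3.55, 2.52 and 1.99 FPKM. Kirrel2 was thus lowest in the other libraries without G9a and not in the dKO.

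Sustentacular genes were lower as a group. Of 18 measured, 17 had negative ratios, 9 were 2-fold lower and 7 of those had separate intervals; the median was -1.02 and the dKO was the lowest of 4 libraries for 12, against 21.3% of all genes. Cyp2g1, a cytochrome P450 specific to olfactory mucosa (mm9 chromosome 7, 27593946 to 27606216), was at 78.3, 54.6, 33.0 and 24.2 FPKM, 3.24-fold lower in the dKO. Its values descended through the 4 libraries, and the dKO interval of 16.6 to 31.8 lay below the G9a het interval of 57.1 to 99.5. Cyp2a5 and Cyp2f2, P450s of odorant and toxicant metabolism, were at 163, 105, 50.7 and 57.1 FPKM and at 318, 202, 123 and 117 FPKM. For these abundant enzymes the levels of the dKO and the G9a KO GLP het library were close. Sult1c1, a sulfotransferase, was the exception in order, at 11.1, 1.89, 26.1 and 0.991 FPKM, with its highest value in G9a KO GLP het. Ermn, a cytoskeletal marker of sustentacular cells, had a smaller ratio of -0.61, and Krt18, a simple-epithelium keratin, one of -1.20 with separate intervals.

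Enzymes of xenobiotic metabolism, many of them made by sustentacular cells, were described as a list of their own. Of 41 measured, 10 were 2-fold lower (9 with separate intervals) and 1, Gstm6, was 2-fold higher, and the median of -0.32 was modest. Besides the genes above, Gsta3 (a glutathione transferase) was at 15.5, 7.96, 4.04 and 4.16 FPKM, Sult1d1 at 27.0, 10.6, 11.8 and 8.25 FPKM and Aldh1a1, a retinal dehydrogenase, at 48.7, 34.4, 26.3 and 22.0 FPKM. All 3 were highest in G9a het. Por, the reductase that feeds electrons to P450s, was at 63.6, 55.3, 42.1 and 34.5 FPKM with overlapping intervals. By symbol, the whole Cyp family of 37 genes had a median of 0.01, with 8 genes lower and 1 higher with separate intervals, so lower levels did not extend over the family. The higher one was Cyp2b19, a P450 of keratinocytes, at 0.546, 1.79, 9.84 and 17.9 FPKM.

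Genes of Bowman glands and nasal secretions were lower throughout in the dKO library. All 19 measured had negative ratios, 13 were at least 2-fold lower, and all 13 had separate intervals, with a median of -1.81. Lcn11, a lipocalin (mm9 chromosome 2, 25632537 to 25635799), was at 71.9, 10.9, 0.590 and 0.221 FPKM. Gpx6, a glutathione peroxidase of olfactory mucosa, was at 20.5, 1.08, 0.319 and 0.221 FPKM, and Bpil3 (now Bpifb6), a lipid-binding secreted protein, at 13.1, 0.164, 0 and 0 FPKM. These genes were already several-fold lower in the G9a KO library and near 0 in both libraries with fewer GLP alleles. Gm1006 (now Bpifb4), of the same secreted family, was at 24.7, 1.16, 0.396 and 0.370 FPKM.

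Abundant secretions differed less steeply. Plunc (now Bpifa1), a surfactant-like airway protein, was at 1531, 870.3, 626 and 548 FPKM, 2.79-fold lower in the dKO. Reg3g, an antibacterial lectin, was at 382, 229, 126 and 90.8 FPKM, and Muc5b, a gel-forming mucin, at 25.8, 15.5, 5.18 and 3.31 FPKM. Each was ordered from G9a het down to the dKO. Agr2, a disulfide isomerase needed for mucin folding, was at 56.7, 39.2, 16.8 and 15.5 FPKM, and Scgb1c1, a secretoglobin, at 66.3, 19, 8.70 and 12.6 FPKM. In contrast Sox9 and Aqp5, a transcription factor and a water channel of gland cells, were at 14.8 FPKM (heterozygote) and 10.8 FPKM (dKO) and at 14.3 FPKM (heterozygote) and 6.86 FPKM (dKO), with overlapping intervals. The summed level of the list was 2291, 1284, 857 and 724 FPKM, most of it Plunc.

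Microvillar genes did not move together. Of 10 measured, 6 were at least 2-fold lower (3 with separate intervals) and 1 was higher with separate intervals, around a median of -1.03. On the lower side stood Ascl3 and Foxi1, factors of ionocyte-like microvillar cells, at 9.16, 5.65, 1.35 and 3.49 FPKM and at 4.59, 2.86, 2.0 and 1.99 FPKM, with overlapping intervals. Coch and the chloride channel gene Cftr were lower with separate intervals, at 25.3, 8.42, 8.93 and 6.60 FPKM and at 2.69, 1.08, 1.01 and 0.775 FPKM. On the higher side Pou2f3, the master factor of tuft cells (mm9 chromosome 9, 42932022 to 43013838), was at 0.956, 1.66, 3.92 and 4.69 FPKM, and Trpm5, the cation channel of taste and tuft cells, at 2.12, 2.96, 4.04 and 4.0 FPKM. Avil, advillin of tuft cells and some sensory neurons, was on the lower side with separate intervals, at 7.64, 0.843, 0.750 and 2.84 FPKM. Pou2f3 and Trpm5 were above G9a het in each of the 3 libraries without G9a. Pou2f3 is also made in skin keratinocytes, whose markers were higher in the same libraries, and the part of skin in this value was not tested.

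Motile cilium genes leaned lower by less than 2-fold. Of 28 measured, 25 were below 0, against 48.3% of all genes, and the median was -0.51, but only 2 were called. The dKO was the lowest of 4 for 18, against 21.3% of all genes. Dnahc5, a heavy chain of outer dynein arms, was at 26.4, 14.8, 16.1 and 11.3 FPKM, and Fam183b at 68.8, 70.2, 23.4 and 24.4 FPKM. Dnahc5 was lower in every library without G9a, Fam183b in 2 of the 3. Foxj1, the master factor of motile cilia, was at 31.0, 30.9, 30.4 and 28.5 FPKM, nearly the same in all 4. Ccno, a cyclin of basal body amplification, ran the other way, at 1.95, 2.86, 3.39 and 4.76 FPKM, with overlapping intervals.

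**Figure D2:**
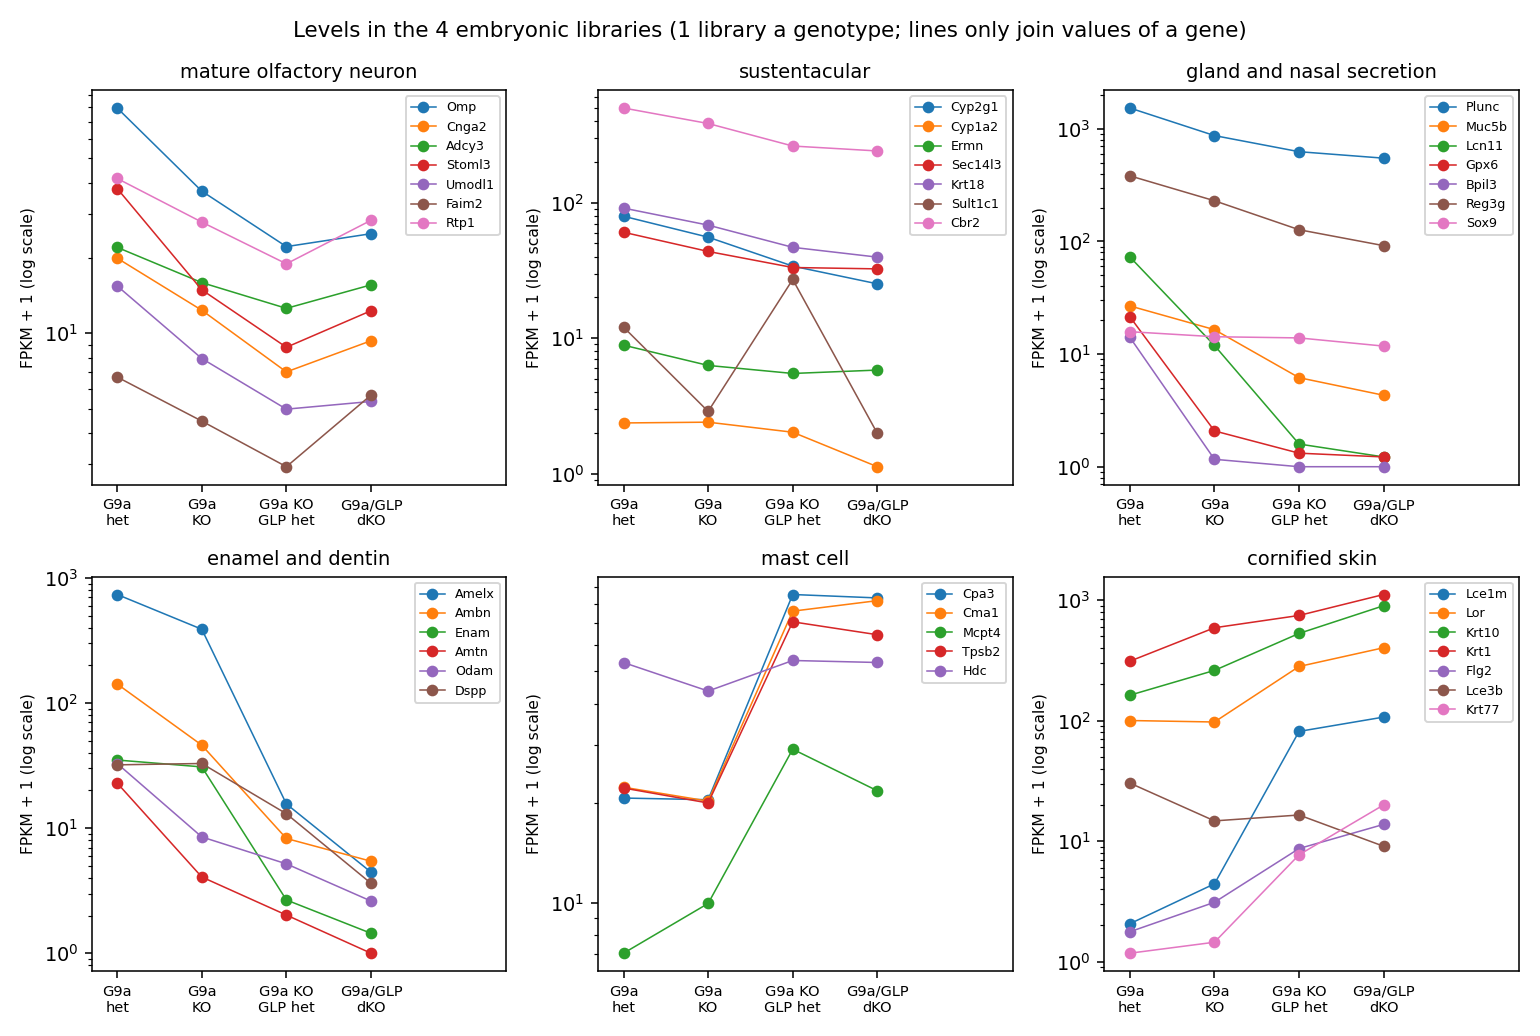
FPKM + 1 on a log scale (vertical, with its own range in each panel) for chosen genes of 6 tissues in the 4 embryonic libraries (horizontal); each point is 1 library and the lines only join a gene's values. Gland, sustentacular and enamel genes stand highest in G9a het except Sult1c1, Cyp1a2 and Dspp, 4 of the 5 mast cell genes are high in G9a KO GLP het and dKO alone, and cornified genes other than Lce3b are highest in the dKO.

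Ensheathing and Schwann glia genes were even in the libraries compared: none of 19 was 2-fold apart and the median was -0.04. Sox10, a glial transcription factor, was at 7.24, 9.32, 10.8 and 11.3 FPKM. Forebrain and olfactory bulb genes split. Tbr1, a factor of projection neurons, was at 5.16, 19.2, 0.287 and 16.3 FPKM, and Reln, the secreted guidance protein Reelin, at 5.38, 11.2, 3.47 and 16.7 FPKM. Both were higher with separate intervals, and both were high in G9a KO as well. Neurod6 and Neurod2, also of cortical neurons, were at 7.48, 24.3, 0 and 3.51 FPKM and at 3.27, 13.4, 0.0927 and 1.71 FPKM, so these projection neuron genes had lower dKO levels, with overlapping intervals. The summed level of the 20 listed brain genes was 189, 273, 114 and 183 FPKM.

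Choroid plexus genes, which would mark brain lining carried along, were led by Ttr, the thyroxine carrier, at 65.6, 24.7, 0.435 and 1.03 FPKM, and Clic6, a chloride channel, at 56.1, 34.6, 29.6 and 24 FPKM, both lower with separate intervals. Of 11 measured, 9 were below 0, against 48.3% of all genes, with a median of -0.58. Ttr and Clic6 passed 2-fold on this scale, and Folr1, the folate receptor of choroid plexus, was at 1.76, 1.38, 1.58 and 0.696 FPKM.

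Connective tissue genes leaned higher, without a shift of the collagens. Of 25 mesenchyme and fibroblast genes, 19 were above 0, against 51.7% of all genes, the median was 0.31, and 2 were higher with separate intervals. Twist2, a factor of dermal fibroblasts (mm9 chromosome 1, 93698054 to 93744604), was at 2.65, 4.24, 19.7 and 20.9 FPKM, and Dpt, the dermal matrix protein dermatopontin, at 13.6, 19.6, 69.3 and 54.7 FPKM. Both were low in G9a het and G9a KO and several-fold higher in G9a KO GLP het and the dKO. Twist1 and Osr1 were just past 2-fold with overlapping intervals. Col1a1, Col1a2 and Col3a1, the main fibrillar collagens, had log2 ratios of -0.01, 0.09 and 0.37. By symbol none of 39 collagen genes was 2-fold apart. Foxf1a, a mesenchymal forkhead factor, was listed at 14.8, 10.9, 14.3 and 1.53 FPKM, but a deposited value lay outside its own interval, and its difference is uncertain.

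Skeletal tissue genes leaned a little lower. Medians were -0.24 for 19 cartilage genes, -0.30 for 16 bone genes and -0.36 for 11 osteoclast genes. Of these 46 genes, 2 were called. Mepe, an osteocyte matrix protein, was at 4.96, 3.10, 1.42 and 0.751 FPKM, and Chad, a cartilage matrix protein that shares a locus with Acsf2, at 41.0, 31.5, 18.9 and 13.8 FPKM. Col2a1, the collagen of cartilage, was at 73.9, 86.3, 82.4 and 71.2 FPKM, and Ctsk, the collagen protease of osteoclasts, at 275, 308, 216 and 197 FPKM.

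Enamel and dentin genes had the lowest list median, -1.86, a rank that passed to the gland list in some other settings (with a pseudocount of 5 FPKM the medians were -0.70 for enamel and -1.08 for glands). All 15 measured were below 0 and 8 were called, among them Amelx, Ambn, Enam, Amtn and Odam. Amelx, amelogenin (mm9 chromosome X, 165233031 to 165742367, a span that also holds Arhgap6), was at 737, 388, 14.6 and 3.45 FPKM. Ambn, ameloblastin, was at 141, 45.1, 7.26 and 4.44 FPKM, and Enam, enamelin, at 34.0, 29.9, 1.66 and 0.443 FPKM. In all 3 the first pair of libraries was high, and both libraries with fewer GLP alleles were low. Dspp, the dentin phosphoprotein, was at 31.1, 31.9, 12 and 2.62 FPKM, and Amtn, amelotin, which seals enamel to gum, at 21.9, 3.07, 1.02 and 0 FPKM. The summed level of Amelx, Ambn, Enam and Amtn was 934, 466, 24.6 and 8.33 FPKM, or 112-fold less in the dKO than in the heterozygote. Tooth germ is no part of olfactory epithelium, and its share of each dissection was not tested.

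Skeletal muscle genes were called in both directions. Of 29 measured, 7 were at least 2-fold higher, 6 of them with separate intervals, and 2 were lower with separate intervals; the median was 0.39. The higher genes with separate intervals were Myl1, Tnnc1, Tnni1, Tnnt1, Myh7 and Myog. Myl1, an essential light chain (mm9 chromosome 1, 66970870 to 66991630), was at 59.6, 146, 214 and 207 FPKM, 3.48-fold higher in the dKO. Tnnc1 and Tnni1, troponins of slow and cardiac or slow muscle, were at 21.5, 40.0, 69.7 and 66.1 FPKM and at 17.5, 25.4, 56.6 and 51.2 FPKM. Myog, the factor that drives muscle differentiation, was at 10.1, 12.7, 28.2 and 29.1 FPKM. Each was higher in the dKO and in G9a KO GLP het than in G9a het. The lower genes were Myh4 and Myh2, heavy chains of adult fast fibres, at 3.04, 1.35, 0.0658 and 0.283 FPKM and at 4.59, 2.77, 0.498 and 0.951 FPKM. Myh3 and Myh8, embryonic and perinatal heavy chains, differed in sign, at 80.7 FPKM (heterozygote) and 141 FPKM (dKO) and at 141 FPKM (heterozygote) and 90.9 FPKM (dKO), with overlapping intervals. The summed level of the list was 2210, 1869, 3155 and 2798 FPKM.

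**Figure D3:**
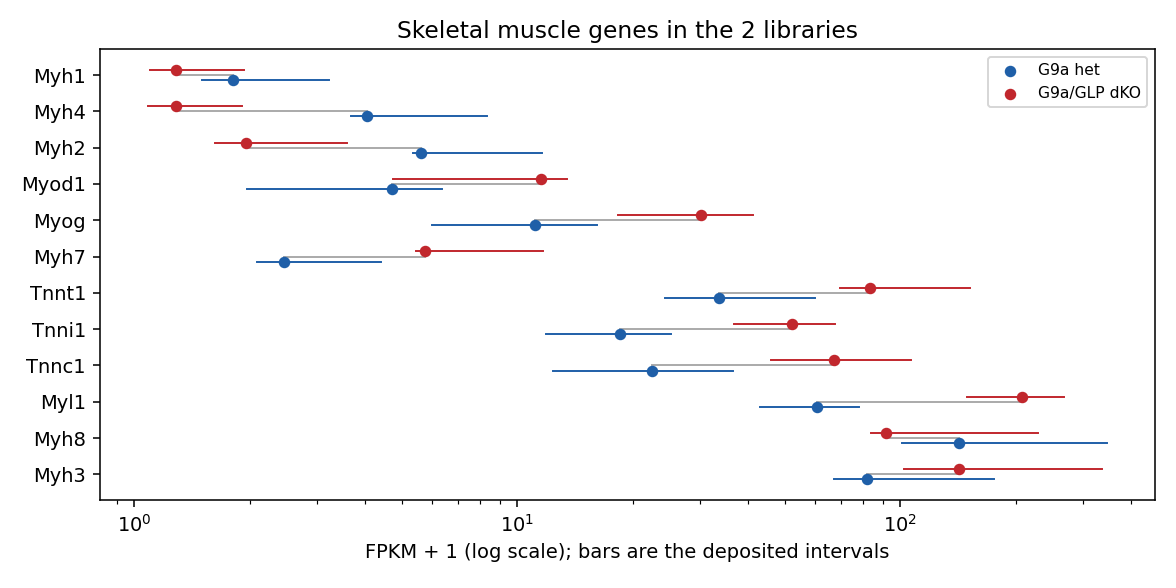
FPKM + 1 on a log scale (horizontal) of 12 skeletal muscle genes in the G9a het and G9a/GLP dKO libraries, 1 library each; bars are the intervals the authors deposited. Troponins, Myl1, Myh7 and Myog are higher in the dKO, and the adult fast heavy chains Myh4 and Myh2 are lower.

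Genes of the spinous and cornified layers of skin were the highest of the lists with 10 or more measured genes. Of 44 measured, 28 were at least 2-fold higher and 27 of these had separate intervals, with a median of 1.82; the dKO was the highest of the 4 libraries for 35, against 23.0% of all genes. They made up 10 of the 20 highest named genes. Krt10 and Krt1, the paired keratins of the spinous layer, were at 162, 260.4, 529 and 899 FPKM and at 311, 589, 746 and 1113 FPKM. Lor, loricrin, the main protein of the cornified envelope, was at 99.3, 96.5, 281 and 402 FPKM. All 3 were ordered with the dKO on top, and the interval of Krt1 alone overlapped that of G9a het. For Lor and Crnn the FPKM lay outside its own interval in both libraries compared, and for Cyp2f2 and Dspp in 1 of them. Flg2, a filaggrin-like protein, was at 0.772, 2.11, 7.69 and 12.8 FPKM, and Krt77, a keratin of suprabasal skin, at 0.176, 0.451, 6.71 and 19 FPKM. Stfa3, a stefin protease inhibitor with close copies, was at 28.9, 135, 455 and 723 FPKM.

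The late cornified envelope (Lce) genes, small envelope proteins set side by side on chromosome 3, went in both directions. Lce1m was at 1.07, 3.43, 80.5 and 106 FPKM, a 99.6-fold higher level in the dKO. Lce1c was at 5.42, 6.59, 37.7 and 62.7 FPKM and Lce1b at 4.64, 2.66, 26.5 and 53.7 FPKM. Lce3b, a member of the Lce3 group, was lower, at 29.4, 13.7, 15.5 and 8.08 FPKM. Summed over 12 Lce1 genes, which are similar enough that fragments may be shared, the level was 51.2, 42.2, 294 and 475 FPKM, 9.29 times as much in the dKO as in G9a het. Since Lce1 genes differed together, the windows around the starts of 3 of them are shown with that of Lce3b, which differed the other way. They run from 250 bases before to 50 after the gene's start on the gene's strand, as given by RefSeq on GRCm38.p6, with the letters ATAAAA in capitals.

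Lce1m: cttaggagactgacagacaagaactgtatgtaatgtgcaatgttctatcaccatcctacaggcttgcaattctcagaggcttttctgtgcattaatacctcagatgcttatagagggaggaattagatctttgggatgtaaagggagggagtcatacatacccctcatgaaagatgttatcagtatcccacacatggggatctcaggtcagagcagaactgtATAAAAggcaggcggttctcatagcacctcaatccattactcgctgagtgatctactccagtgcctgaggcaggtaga

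Lce1c: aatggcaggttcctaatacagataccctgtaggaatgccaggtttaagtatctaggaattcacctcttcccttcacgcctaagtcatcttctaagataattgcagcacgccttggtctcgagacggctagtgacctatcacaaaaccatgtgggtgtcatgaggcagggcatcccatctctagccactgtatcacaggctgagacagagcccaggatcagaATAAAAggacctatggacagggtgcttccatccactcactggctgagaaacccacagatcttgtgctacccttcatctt

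Lce1b: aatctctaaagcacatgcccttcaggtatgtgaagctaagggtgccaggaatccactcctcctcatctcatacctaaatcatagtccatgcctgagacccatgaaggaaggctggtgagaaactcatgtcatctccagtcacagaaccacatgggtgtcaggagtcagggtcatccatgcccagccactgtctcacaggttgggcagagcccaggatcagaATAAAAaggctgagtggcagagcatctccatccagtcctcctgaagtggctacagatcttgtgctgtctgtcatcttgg

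Lce3b: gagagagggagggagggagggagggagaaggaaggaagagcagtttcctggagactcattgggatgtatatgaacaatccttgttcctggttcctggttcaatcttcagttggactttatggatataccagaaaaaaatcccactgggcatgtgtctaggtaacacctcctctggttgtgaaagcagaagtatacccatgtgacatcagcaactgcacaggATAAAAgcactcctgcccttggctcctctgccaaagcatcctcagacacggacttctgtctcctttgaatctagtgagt

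The windows lie at chr3:93019012-93019311 on the minus strand (Lce1m), chr3:92678997-92679296 on the plus strand (Lce1c), chr3:92656877-92657176 on the minus strand (Lce1b) and chr3:92932729-92933028 on the plus strand (Lce3b). The motif ATAAAA was chosen after the windows were read. It fell within the 50 bases before the start in 12 of 13 Lce1 genes with a window, and in Lce3b as well, so it did not part the Lce genes that were higher from the one that was lower. Of 32851 RefSeq windows of the same length, 2.65% held it there on the gene's strand, and 6069 held it anywhere on either strand. A match is a description of letters and shows neither a site nor a cause.

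Squamous genes of other surfaces were mixed. Of 13 measured, 8 were above 0, with a median of 0.36. The dKO was the highest of the 4 libraries for 7, against 23.0% of all genes. With separate intervals 1 was higher and 2 were lower. Krt76, a keratin of hard palate and gum, was at 42.0, 22.6, 1.94 and 4.10 FPKM, and Crnn, cornulin, at 21.7, 24.8, 10.1 and 7.09 FPKM, both lower with separate intervals. Krt4 and Krt13, the keratin pair of oral and oesophageal mucosa, were at 797, 1155, 395 and 446 FPKM and at 1307, 1819, 871 and 972 FPKM, with overlapping intervals. Krt16, a keratin of stressed and palmar skin, was higher with separate intervals, at 4.28, 15.9, 11.2 and 20.7 FPKM, and Krt6b, a keratin with the close copy Krt6a, was at 7.25, 16.3, 11.5 and 24.8 FPKM with overlapping intervals. Of the Krt family, 37 genes were measured, with 6 higher and 3 lower with separate intervals. Rptn, repetin, on the skin list, was at 272, 224, 96.6 and 97.6 FPKM, lower with overlapping intervals.

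Hair follicle and pigment genes were mostly low in level. Of 12 follicle genes, 9 were above 0, against 51.7% of all genes, with a median of 0.69. Of 5 pigment genes 4 were above 0, with a median of 0.89. Gata3, a transcription factor of the inner root sheath, was at 2.40, 3.34, 8.98 and 6.90 FPKM, at least 2-fold higher with overlapping intervals. Shh, the morphogen of placodes and tooth buds, was the 1 gene called on the follicle list, lower at 31.1, 21.8, 18.8 and 13.7 FPKM. Keratins of the inner root sheath such as Krt71, at 5.76, 4.14, 31.9 and 12.5 FPKM, were highest in G9a KO GLP het. Outside the list, keratin-associated Krtap14 and Krtap15 were called higher, at 0, 1.21, 6.24 and 4.34 FPKM and at 0, 2.66, 17.7 and 4.49 FPKM. They were chosen after their values were seen. Dct, an enzyme of melanin synthesis, was at 1.03, 1.59, 5.34 and 7.20 FPKM, higher with separate intervals, while Tyrp1 of the same pathway was at 1.60, 0.484, 1.87 and 2.02 FPKM.

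**Figure D4:**
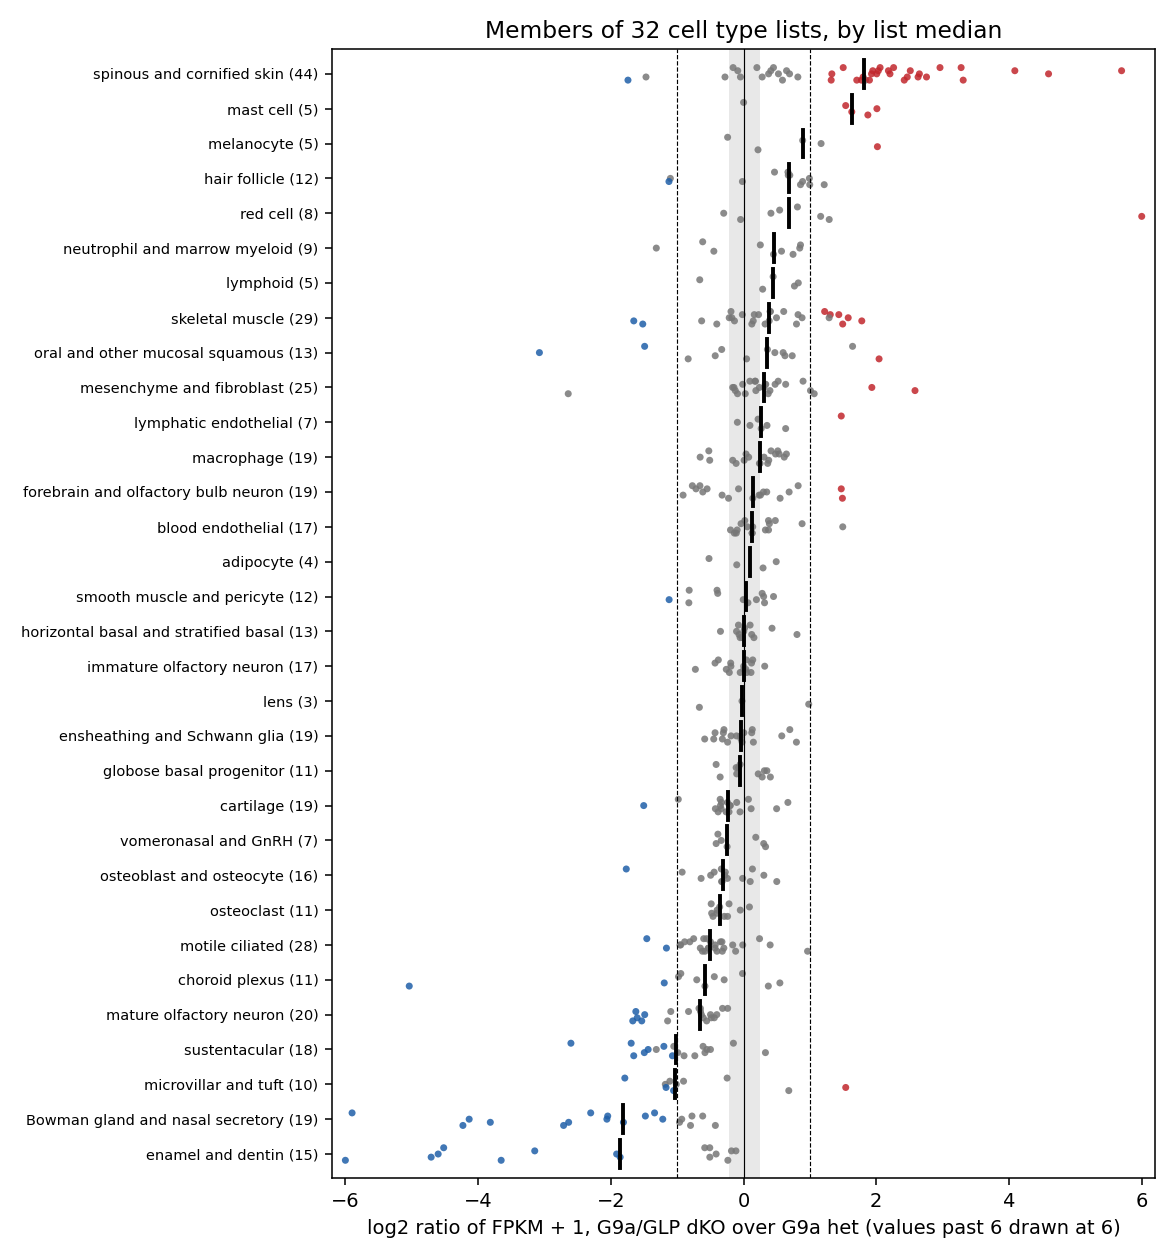
Log2 ratio of FPKM + 1, dKO over G9a het (horizontal), for the measured members of 32 cell type lists (rows, with the number measured); black bars are list medians, red and blue points are higher and lower by 2-fold with separate intervals, the grey band runs between the quartiles of all genes, and dashed lines mark 2-fold. Enamel, gland, microvillar, sustentacular and mature neuron lists lie lowest, and cornified skin and mast cell lists highest.

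Mast cell genes were higher, without a like difference in other immune cells. Of 5 measured, 4 were higher with separate intervals. Cpa3, mast cell carboxypeptidase (mm9 chromosome 3, 20115515 to 20142080), was at 19.7, 19.5, 84.4 and 82.4 FPKM. The chymases Cma1 and Mcpt4 were at 21.3, 19.3, 75.1 and 80.9 FPKM and at 6.04, 8.95, 28.1 and 20.8 FPKM, and the tryptase Tpsb2 at 21.2, 19, 69.6 and 63.6 FPKM. In every one of these 4 the first pair of libraries was low and the second pair high. The fifth, Hdc, the histamine-forming enzyme, was the same in both libraries compared, at 52.2, 42.6, 53 and 52.2 FPKM. Their protease sum was 68.3, 66.7, 257 and 248 FPKM. Skin holds many mast cells, and the skin list was higher in the same libraries. The part of tissue make-up in these values was not tested.

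No macrophage gene of 19 was 2-fold apart, although the dKO was the highest of 4 for 12 of them, against 23.0% of all genes. Csf1r and C1qa, a growth factor receptor and a complement chain, were at 19.4, 16.7, 15.7 and 17.8 FPKM and at 16.5, 14.3, 12.9 and 17.5 FPKM. S100a8 and S100a9, calcium-binding proteins of neutrophils that keratinocytes also make, had log2 ratios of 0.85 and 0.86, and Lcn2, an antibacterial lipocalin, was 2-fold lower at 16.2, 7.86, 7.85 and 5.93 FPKM, all with overlapping intervals. Blood vessel genes were even. Pecam1, Cdh5 and Kdr had log2 ratios of -0.14, 0.38 and 0.06, and none of 17 was called. Of 12 smooth muscle and pericyte genes, 6 were below 0 and 6 above, with a median of 0.03, and 1 was called. That gene was Rgs5, a marker of pericytes, at 77.1, 35.6, 36.1 and 34.9 FPKM. It was lower with separate intervals and similarly low in all 3 libraries without G9a.

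In the red cell list, Hba-a1 headed all genes, and its ratio cannot be used by itself. Hba-a1 was at 0.0205, 4218, 382 and 645 FPKM and its copy Hba-a2 at 1805, 106, 667 and 1467 FPKM, at 1 shared locus in the table. The reading frames of both genes in the GENCODE M21 transcripts are 429 bases long and differ at 1 base, C381T, counted from the A of the start codon with Hba-a1 first. A 61-base stretch around it is shown with that base in capitals, because within the frames only that base tells the genes apart.

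Hba-a1: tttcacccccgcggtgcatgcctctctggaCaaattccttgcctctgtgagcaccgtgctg

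Hba-a2: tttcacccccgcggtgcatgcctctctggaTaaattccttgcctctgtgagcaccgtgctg

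Summed over both, alpha globin was at 1805, 4324, 1049 and 2112 FPKM, with 1.17 times as much in the dKO as in G9a het. The beta globin pair summed to 65.5, 172, 55.9 and 115 FPKM, and Alas2, the first enzyme of red cell haem synthesis, was at 21.2, 39.3, 12.7 and 20.5 FPKM. The sums were highest in G9a KO for both pairs. Of 8 red cell genes measured, 6 were above 0 and 3 were at least 2-fold higher, with a median of 0.68. With no minimum FPKM that median was 0.11. The only member called with separate intervals was Hba-a1.

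Among pathways that cells of all types use, the cell cycle list leaned higher and the other medians were closer to equality. None of 29 cell cycle genes was 2-fold apart, though 27 were above 0, against 51.7% of all genes. Their median of 0.27 lay just above the upper quartile of all genes, 0.23. Top2a, the mitotic topoisomerase, was at 41.5, 44.7, 48.2 and 43.1 FPKM. Oxidative phosphorylation, with 48 genes, had a median of 0.01 and no call with separate intervals. The 28 genes of the G9a and GLP complex and of H3K9 methylation had a median of 0.16 and none 2-fold apart; the most distant was Cbx3, an HP1 protein that binds methylated H3K9, at 26.0, 26.1, 17.1 and 15 FPKM. None of 19 p53 target genes was 2-fold apart either, and Cdkn1a, the cell cycle inhibitor, was at 84.0, 92.5, 80.3 and 81.5 FPKM.

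Germline genes, several of which are held silent by G9a in other tissues, were mostly under the detection used. Of 37 in the table, 5 reached 1 FPKM in either library, all 5 had ratios below 0 and none was 2-fold apart. Brdt, a testis bromodomain protein, was at 4.57, 3.12, 2.79 and 4.55 FPKM, and Sycp3, of the meiotic chromosome axis, at 1.89, 0.682, 1.44 and 0.661 FPKM. Genes kept below the limit are not shown to be equal. Of 39 imprinted genes, 32 were above 0, against 51.7% of all genes, with a median of 0.21. The 2 genes called higher, against 1.0% of all genes, were paternally expressed. Dlk1, a Notch-like membrane protein of precursor cells, was at 48.2, 56.7, 123 and 114 FPKM, and Peg10, a retrotransposon-derived gene, at 16.5, 17.5, 41.6 and 37.5 FPKM. Both had their highest level in G9a KO GLP het. Maternally expressed H19 and Cdkn1c were at 2119.5, 2553, 2428 and 2298 FPKM and at 324, 417, 651 and 568 FPKM, under 2-fold.

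**Figure D5:**
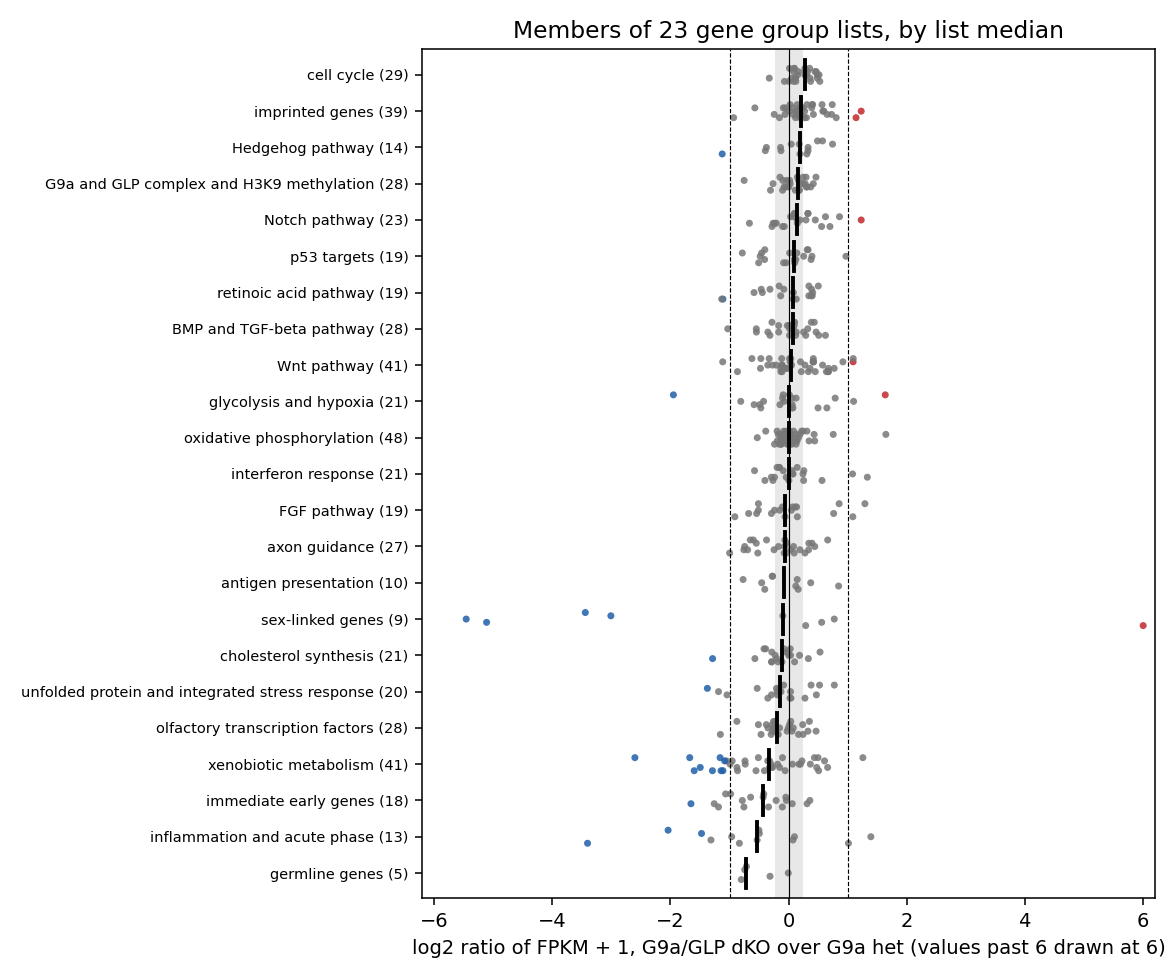
Log2 ratio of FPKM + 1, dKO over G9a het (horizontal), for the measured members of 23 gene group lists (rows), drawn with the same marks as the plot of cell type lists. Most medians lie inside the grey band between the quartiles of all genes; germline, inflammation, immediate early and xenobiotic lists lie below it and the cell cycle list just above.

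Signalling pathway lists had medians between -0.06 (FGF) and 0.19 (Hedgehog). Few of their genes were called, against 1.0% of all genes called higher and 1.27% called lower. Single calls in lists this short cannot be told from those shares. In the Wnt list, 1 of 41 was called, Fzd10, a Wnt receptor, at 3.34, 5.98, 8.77 and 8.25 FPKM. In the Hedgehog list of 14 genes the ligand Shh was the one called gene, while the receptor and target Ptch1 was at 26.8, 19.5, 30.1 and 24.3 FPKM. Aldh1a1 was the call among 19 retinoic acid genes, and Dlk1 among 23 Notch genes. None of 28 genes of the BMP and TGF-beta list or of 19 FGF genes was called. Id4, an inhibitor of helix-loop-helix factors, was at 73.6, 44.8, 39.8 and 35.5 FPKM, and Fgfr4, an FGF receptor of myoblasts, at 2.17, 2.92, 6.63 and 6.76 FPKM, each past 2-fold with overlapping intervals.

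Immediate early genes and inflammation genes leaned lower, while 1 of 20 stress response genes was called. Of 18 immediate early genes, 15 were below 0, against 48.3% of all genes, with a median of -0.43. At least 2-fold lower were 4, 1 of them with separate intervals. Fosb, an AP-1 subunit, was at 5.42, 6.54, 0.879 and 1.04 FPKM, Egr1 at 28.9, 50.1, 14.4 and 13.3 FPKM and Fos at 14.9, 48.0, 6.38 and 8.42 FPKM. These were highest in G9a KO and low in both G9a KO GLP het and dKO. Such genes respond within minutes to handling of tissue, and the part of dissection was not tested. Of 20 stress response genes, Nupr1, a stress-induced chromatin protein, was called lower at 153, 99.6, 55.7 and 58.4 FPKM, while Hspa5, the chaperone BiP, was at 268, 330.0, 289.5 and 274 FPKM. Of 13 acute phase and inflammation genes, 9 were below 0 and 4 above, with a median of -0.53. Called lower were 3, against 1.27% of all genes. The 2 genes at least 2-fold higher, both with overlapping intervals, were Orm1, an acute phase plasma protein, at 1.17, 0.534, 1.27 and 4.69 FPKM, and the chemokine Ccl7 at 0.335, 0.844, 0.191 and 1.69 FPKM. Serpina3n, an acute phase protease inhibitor, was at 23.1, 9.44, 7.35 and 1.28 FPKM, and the neutrophil attractants Cxcl5 and Cxcl1 at 6.23, 2.78, 3.72 and 0.758 FPKM and at 2.48, 0.403, 0.357 and 0.254 FPKM. Serpina3n was the lowest in the dKO by a wide margin. Interferon response genes had a median of 0.00 over 21 genes and no call with separate intervals, and antigen presentation genes likewise had none of 10.

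Among metabolic genes, Insig1, the brake on sterol synthesis, was at 75.5, 60.3, 38.4 and 30.4 FPKM, the 1 called gene of 21 in cholesterol synthesis. Ankrd37, a hypoxia-induced gene, was called higher at 5.89, 12.9, 18.6 and 20.4 FPKM, and glycolytic Aldoa and Ldha were at 341 FPKM (heterozygote) and 246 FPKM (dKO) and at 279 FPKM (heterozygote) and 259.7 FPKM (dKO). Eno1, called lower, was listed at 2.86, 1.74, 0 and 0 FPKM, far under the other glycolytic genes, and it has many processed copies, so its call is uncertain.

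Calls by symbol family are set beside the shares of all genes, 1.0% higher and 1.27% lower with separate intervals. Of 267 Slc transporter genes, 6 were higher and 3 lower with separate intervals; Slc5a8, a monocarboxylate transporter, was at 15.3, 6.86, 5.16 and 4.0 FPKM and Slc7a11, the cystine exchanger, at 1.88, 6.36, 1.52 and 7.46 FPKM. Of 328 Zfp genes 1 was called, Zfp266, listed at 38.1, 35.9, 39.7 and 0 FPKM. It was at a similar level in all 3 other libraries, and a listed 0 of this kind can be a failed estimate. Of 8 Cxcl chemokine genes, 2 were called higher and 3 lower. Cxcl14, a chemokine of skin and other epithelia, was at 11, 19.5, 60.5 and 55.2 FPKM, and Cxcl17, a mucosal chemokine, at 29.8, 16.1, 7.82 and 5.95 FPKM. Of 39 Hist genes 1 was called each way. Hist1h3e was listed at 0, 3.48, 0.546 and 5.49 FPKM, and Hist1h1c, a linker histone, was at 89.2, 61.8, 29.8 and 30.3 FPKM.

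No autosome stood apart in its median, which lay between -0.05 and 0.05 for each. Chromosome 3, which carries the Lce cluster and Cpa3, had 23 genes higher with separate intervals of 777 measured, against 1.0% of all genes. Chromosome 7, which carries the Omp and Cyp2g1 loci, had 27 lower of 1154, against 1.27% of all genes. Chromosome X had a median of 0.03, with 6 higher and 2 lower of 512, and all 4 measured genes of chromosome Y were lower.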

How the data were processed

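The submitters' processing notes name TopHat, Cufflinks, Cuffdiff and the mouse build mm9, without versions; the parameters and the annotation were not given in the sources used here. Per the labels, RNA was selected on poly(dT) beads and made into libraries with ScriptSeq V2. The authors deposited FPKM for each gene symbol and library, with the bounds of an interval for each; library totals were not derived here, so the intervals give the precision. Of 15080 genes, 298 had an FPKM outside its own interval in either library and 2235 share a locus with another symbol.

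Ratios were taken as log2((dKO FPKM + 1)/(G9a het FPKM + 1)), which understates differences of low genes. Genes needed 1 FPKM in either library, and were counted at 2-fold and, as calls, at 2-fold with separate intervals. No test was run, with 1 library a genotype; 3 embryonic comparisons share the G9a het library. Code (Python 3.11.15, pandas 2.3.3) was tested on simulated data. Of 1154 list entries, 7 were not found in the table. Named genes were the targeted genes, the 20 highest and 20 lowest at 5 FPKM or more with separate intervals, the defining, most abundant and most distant members of lists and families, and globin pairs. Members and lists were chosen with earlier results of these data known. Alternatives are given in the closing section. The postnatal libraries were not used. Values of some single genes are not reported here.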

Additional observations from a re-analysis of the deposited data

How the results depend on the processing

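Counts of calls with separate intervals stayed within 1.5 times of 151 higher and 192 lower under all alternatives except 2. With a pseudocount of 5 FPKM they were 79 and 99, and with a 3-fold limit 90 and 85. Counts without the interval demand moved more from 307 higher and 304 lower. A pseudocount of 0.1 gave 601 and 548, and one of 5 gave 92 and 108. A limit of 1.5-fold gave 1063 and 990, and one of 3-fold gave 110 and 89. A minimum of 5 FPKM gave 187 higher, and TPM scaling, which raises all values against the pseudocount, gave 534 higher. Centring on the median ratio, no minimum, and leaving out genes outside their own interval left all 4 counts within 1.5 times. So did 3 alternatives chosen after seeing the data, without genes of shared loci, without the sex-linked list, or without genes listed at 0 in 1 library. All 14 lists with a median at least 0.5 from 0 kept their direction wherever they had a median. The germline list had none at a minimum of 5 FPKM, and its median was -0.08 with no minimum. The 6 lists past 0.5 throughout were mature neuron, sustentacular, gland, enamel and dentin, mast cell and cornified skin. With a pseudocount of 5 FPKM the microvillar, hair follicle and melanocyte medians were -0.43, 0.28 and 0.32. The enamel and dentin median ran from -3.36 to -0.70. Of 170 named genes at least 2-fold apart, all kept their direction and 115 stayed past 2-fold in every setting. No paired analysis was possible because each genotype had 1 library, which also means that no library could be left out.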

Other observations

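Some called genes outside the lists are given here as values; they were chosen after their values were seen. A set was higher in both the dKO and the G9a KO library and lower in G9a KO GLP het than in G9a het. The libraries high in this set are also those that carried Xist RNA, at 0.242, 140.2, 0.272 and 208 FPKM in the library order used above, and the part of sex was not tested. Slc6a13, a GABA and taurine transporter, was at 2.56, 11.5, 1.81 and 13.5 FPKM. Ptgds, prostaglandin D synthase, was at 18.0, 51.0, 4.70 and 55.4 FPKM. Zic1 and Zic2, zinc finger factors of dorsal brain and its coverings, were at 5.97, 18.9, 2.53 and 18.9 FPKM and at 3.15, 10.3, 1.3 and 12.3 FPKM; the dKO value of Zic2 lay outside its own interval. Slc22a6, an organic anion transporter, was at 0.446, 2.63, 0.0795 and 4.2 FPKM. In each of these genes the G9a KO and dKO values lay closer to each other than to the remaining libraries. Tbr1 and Reln of the brain list were likewise higher in G9a KO and the dKO, and lower in G9a KO GLP het, than in G9a het. Neurod6 and Neurod2 of that list were higher in G9a KO but lower in the dKO. The part of brain tissue carried along was not tested either.

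Another set stood high in G9a KO GLP het and the dKO. Tbx18, a factor of mesenchyme, was at 0.742, 2.57, 4.87 and 6.55 FPKM, and the keratinocyte cytokine Il1f5 (now Il36rn) at 1.97, 4.29, 7.48 and 16.2 FPKM. Among secreted proteins outside the gland list, Pglyrp1, a peptidoglycan-binding protein, was at 181, 102, 44.2 and 39.9 FPKM, Defb4, a defensin, at 53.1, 53.8, 12.8 and 12.3 FPKM, and Muc1, a membrane mucin, at 40.6, 27.3, 14.8 and 11.9 FPKM. Car6, a secreted carbonic anhydrase, was at 14.4, 1.91, 0.560 and 0.315 FPKM, and the androgen-binding protein gene Abpb at 18.6, 0.374, 0 and 0 FPKM. The last pair was near 0 in all libraries but G9a het and, for Car6, G9a KO.

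Some genes of abundant proteins had erratic values. Rpl26, a ribosomal protein, was listed at 88.8, 9.28, 0.129 and 275 FPKM. Gm15772, a symbol at the same locus, was listed at 192, 301, 317 and 0.0615 FPKM, high where Rpl26 was low, so that neither value stands alone. Rps2, another ribosomal protein, was at 13.8, 39.7, 52.6 and 50.9 FPKM. Gapdh, a glycolytic enzyme, stayed under 1 FPKM in both libraries compared, at 0.860 FPKM (heterozygote) and 0.244 FPKM (dKO).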
